A study of Mus musculus with 16 samples.

Results

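A set of 10 genes of the death receptor system was followed across 16 B16F10 melanoma tumors, namely Fas, Tnfrsf1a, Tnfrsf1b and Tnfrsf10b (receptors), Fasl, Tnf, Tnfsf10, Lta and Ltb (ligands) and Casp8 (the caspase that acts first below the receptors). They were chosen by symbol, and all 10 of the 10 were found among the 18929 genes measured by RNA sequencing. B16F10 is a melanoma line derived from C57BL/6, so that it can be grown in this strain with its immune system intact. Cells were injected on the right side of the abdomen in female C57BL/6 mice aged 7 to 8 weeks, and when tumors had reached about 50 cubic millimeters the mice were randomized, 6 to a group. The vehicle group received corn oil with an IgG isotype antibody, the α-KG group 100 mg/kg α-ketoglutarate, the anti-PD1 group a PD1 monoclonal antibody, and the α-KG + anti-PD1 group both, by intraperitoneal injection for 9 to 11 days. Whether the single-treatment groups also received the isotype antibody or corn oil is not given in the sources used here. From each group 4 tumors from separate mice were sequenced. A whole tumor holds melanoma cells together with the leukocytes, vessels and connective tissue of the host.

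Death receptors are the members of the TNF receptor superfamily that carry a death domain in their cytoplasmic part. Fas ligand on a cytotoxic lymphocyte binds Fas on the target cell, the adaptor FADD recruits caspase-8, and caspase-8 starts apoptosis. TRAIL, the product of Tnfsf10, acts the same way through the product of Tnfrsf10b, the mouse TRAIL receptor. TNF binds TNFR1 (Tnfrsf1a), which mainly starts NF-κB signaling and kills when that signal fails, and TNFR2 (Tnfrsf1b), which has no death domain and is found mainly on leukocytes. Lymphotoxin-α (Lta) binds the same receptors as TNF, and together with lymphotoxin-β (Ltb) it forms a membrane complex that binds the LTβ receptor. T cells and NK cells are the usual source of Fas ligand and lymphotoxins, while TNF is made by myeloid cells and T cells.

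The values are taken as FPKM from the names of the columns, although a color scale in the study names TPM. FPKM are fragments normalized by the length of the transcript and by the total of mapped fragments. Fold changes are differences of log2(FPKM + 1), a scale on which changes of genes around 1 FPKM and lower come out smaller. The limma test took the 12850 genes that reached 0.5 FPKM in 4 tumors or more, and "called" means a Benjamini-Hochberg adjusted p below 0.05. The depth of the libraries is unknown, as the values are not counts. The FPKM values summed to 549740 to 654772 over the tumors of the other 3 groups and to 514180 to 527812 over those given both agents. The mean of 8 melanocyte markers on the log2 scale was 9.28 with vehicle and 9.20 to 9.46 in the other groups, so that the labelled cell type was present in every group. Red cell markers were lowest (8.36 against 11.4 under vehicle) in the combination, and skeletal muscle markers were highest under vehicle (4.04, with 0.56 under anti-PD1, 0.67 under α-KG and 1.88 in the combination). The part of red cell and muscle RNA in the differences below was not tested.

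Of the 10 genes, 9 were tested. Lta reached 0.5 FPKM in 1 tumor and was left out, whereas Fasl, Fas and Tnfsf10 passed only through the treated tumors, with no vehicle tumor at 0.5 FPKM. The levels followed a pair of patterns. Tnf, Fas and Tnfrsf1b were highest in the α-KG tumors and lower again when anti-PD1 was added, and Fasl, Tnfsf10, Ltb, Lta and Casp8 were highest in the α-KG + anti-PD1 tumors. Tnfrsf1a and Tnfrsf10b differed little between the groups. In bulk tumors, a lower level from fewer cells of a type cannot be told apart from less RNA per cell.

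The promoter windows of 4 of the genes are shown. Tnf, Fas and Tnfrsf1b were called in the most of the 6 comparisons between groups (5, 4 and 4), and Ltb was added, after its values were seen, as the genomic neighbor of Tnf that followed the other pattern. Each sequence is the 250 bases before the start of 1 RefSeq transcript (build GRCm38.p6), on the strand of the gene. For Tnf, Tnfrsf1b and Ltb this start is the outer end of the gene, and for Fas it lies 12 bases inside it, so that the last bases printed for Fas belong to the gene. Capitals mark matches of 4 short motifs that were searched on both strands of the window from 250 bases before to 50 bases after the start, namely the GAS-like motif TTCNNNGAA (of the kind bound by STAT factors), the ISRE-like motif GAAANNGAA (interferon response), the κB motif (NF-κB), and the TATA box spelled TATAAA.

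Tnf, chr17:35202008-35202257, minus strand: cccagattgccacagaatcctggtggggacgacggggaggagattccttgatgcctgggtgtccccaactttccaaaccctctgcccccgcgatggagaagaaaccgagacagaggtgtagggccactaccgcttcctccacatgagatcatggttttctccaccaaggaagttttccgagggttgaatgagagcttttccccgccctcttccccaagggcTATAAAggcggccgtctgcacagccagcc

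Fas, chr19:34290409-34290658, plus strand: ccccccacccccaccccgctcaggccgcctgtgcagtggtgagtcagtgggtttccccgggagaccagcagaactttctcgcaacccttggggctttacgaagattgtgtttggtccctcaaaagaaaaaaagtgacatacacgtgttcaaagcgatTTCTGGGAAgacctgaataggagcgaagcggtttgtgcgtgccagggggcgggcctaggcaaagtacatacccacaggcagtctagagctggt

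Tnfrsf1b, chr4:145246871-145247120, minus strand: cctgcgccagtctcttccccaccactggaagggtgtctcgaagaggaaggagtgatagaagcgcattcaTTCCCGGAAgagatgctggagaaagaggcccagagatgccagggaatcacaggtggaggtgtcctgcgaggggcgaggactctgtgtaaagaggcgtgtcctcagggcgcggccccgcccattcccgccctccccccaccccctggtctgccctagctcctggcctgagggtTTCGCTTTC

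Ltb, chr17:35194257-35194506, plus strand: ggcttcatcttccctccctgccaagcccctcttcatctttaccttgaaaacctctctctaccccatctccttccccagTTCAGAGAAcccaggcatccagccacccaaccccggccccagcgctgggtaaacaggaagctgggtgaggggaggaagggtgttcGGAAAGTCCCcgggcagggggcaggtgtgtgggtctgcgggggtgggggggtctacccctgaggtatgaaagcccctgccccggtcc

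The capitals in Tnf are a TATA match at position -29 from the start. Fas held a GAS-like match at -93, and Tnfrsf1b held one at -181 and an ISRE-like match at -9. In Ltb a GAS-like match lay at -172 and a κB match at -87. Of the members not shown, Tnfrsf1a had a GAS-like match at -244, Lta had GAS-like matches at -152 and -16 and a TATA match at -167, and Fasl, Tnfsf10 and Casp8 had no match in this window. The windows of Lta and Casp8 are not those of the outermost start, as the start used lies 227 and 7269 bases inside the gene. A window was found for 9 of the 10 genes, without Tnfrsf10b. In 32851 windows of the same length, 8.3% held a GAS-like, 8.56% an ISRE-like, 8.46% a κB and 13.6% a TATA match. No match here overlapped another. Tnf, Lta and Ltb lie within 11072 bases of chromosome 17, with Ltb on the plus strand and the other two on the minus strand, and no gene of the table overlaps a member.

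Tnf (NCBI Gene 21926, chr17:35199367-35202007) encodes the cytokine that gave the family its name, and of the members it rose the most with α-KG alone. Its FPKM was 0.77, 0.50, 0.12 and 0.21 in the vehicle tumors and 0.89, 1.96, 1.14 and 1.47 in the anti-PD1 tumors. It was 35.33, 10.88, 44.11 and 33.75 in tumors given α-KG and 7.40, 2.24, 10.06 and 15.68 in those given the combination. The 4 groups followed each other with little overlap, and the lowest α-KG tumor (tumor 2) lay below the highest combination tumor (tumor 4). The means were 0.400 ± 0.295, 1.37 ± 0.462, 31.0 ± 14.2 and 8.85 ± 5.60 FPKM (SD, n = 4 each). With α-KG alone Tnf was 4.38 ± 0.44 (SE) higher than under vehicle on the log2 scale (adjusted p = 4.45e-06), the 29th largest rise of the 12850 genes. The combination differed from α-KG alone by -1.77 (adjusted p = 0.00602) and from anti-PD1 alone by 1.85 (adjusted p = 0.0179).

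Tnfrsf1b (NCBI Gene 21938, chr4:145212368-145246870), the leukocyte receptor for TNF, had the same order of groups. It stood at 4.70, 3.24, 0.89 and 1.09 FPKM under vehicle, at 6.12, 11.52, 10.17 and 8.78 under anti-PD1, at 48.46, 27.02, 48.92 and 60.16 under α-KG and at 30.13, 11.40, 31.93 and 12.79 in the combination. All 4 anti-PD1 tumors were above all 4 vehicle tumors, and all 4 α-KG tumors were above both. Combination tumors 1 and 3 reached into the α-KG range, while tumors 2 and 4 stayed close to the anti-PD1 range. The difference from vehicle was 3.86 ± 0.39 (log2 ± SE) with α-KG (adjusted p = 4.83e-06), 2.71 ± 0.39 with the combination (adjusted p = 0.000417) and 1.67 ± 0.39 with anti-PD1, which did not pass (adjusted p = 0.0568). Between the neighbors in this order, the combination differed from α-KG alone by -1.15 (adjusted p = 0.0291), and it did not pass against anti-PD1 (1.04, adjusted p = 0.0742). The call against α-KG alone was lost without combination tumor 2 or 4 or without α-KG tumor 1, 3 or 4 (adjusted p from 0.0617 to 0.0921). It was also lost with a pseudocount of 0.1 and with rescaling to 1 sum, and it held in 18 of 25 settings. The rise with anti-PD1 passed without vehicle tumor 1 (1.96, adjusted p = 0.0134) and without combination tumor 1, 3 or 4 (adjusted p from 0.0439 to 0.0498).

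Tnfrsf1a (NCBI Gene 21937, chr6:125349723-125362483), the TNF receptor with the death domain, was already abundant in vehicle tumors and moved little. Its 16 values lay between 40.30 and 64.11 FPKM, with means of 45.0 under vehicle, 52.2 under anti-PD1, 56.4 under α-KG and 56.6 in the combination. The combination against vehicle passed (0.32, adjusted p = 0.0371), but not once the tumors were centered on their medians (0.01, adjusted p = 0.920), and α-KG against vehicle missed (0.32, adjusted p = 0.0829), although it passed without vehicle tumor 1 (0.39, adjusted p = 0.0352). The combination did not pass without combination tumor 1 or 3 or vehicle tumor 3 or 4 (adjusted p from 0.0995 to 0.111). Nor did it pass with quantile normalization, with no filter, on the 2 groups alone or with the replicate block, so that it held in 16 of 25 settings. The 2 TNF receptors therefore stood in different proportions in the tumors. Tnfrsf1b per Tnfrsf1a in the same tumor had a median of 0.0479 under vehicle (0.0221 to 0.0901), 0.185 under anti-PD1 (0.132 to 0.192), 0.861 under α-KG (0.566 to 0.938) and 0.358 in the combination (0.235 to 0.521), and no 2 of these 4 ranges overlapped.

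Fas (NCBI Gene 14102, chr19:34290647-34327775), the receptor for Fas ligand, was low in 3 of the 4 groups. Its FPKM was 0.27, 0.17, 0.11 and 0.14 under vehicle, 0.36, 0.46, 0.38 and 0.77 under anti-PD1, 3.87, 2.48, 4.30 and 7.34 under α-KG and 1.48, 0.62, 0.84 and 0.65 in the combination. Every α-KG tumor stood above the other 12 tumors. On the log2 scale α-KG exceeded vehicle by 2.16 ± 0.21 (adjusted p = 2.89e-06), and the combination differed from α-KG alone by -1.49 (adjusted p = 0.000249). The combination remained above vehicle (0.67, adjusted p = 0.0158), a call that was lost with quantile normalization or with centering on the tumor medians (adjusted p = 0.197 and 0.140) or without combination tumor 1 (adjusted p = 0.0524). Against anti-PD1 it did not pass (0.33, adjusted p = 0.265).

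Fasl (NCBI Gene 14103, chr1:161780691-161788495), which encodes Fas ligand, followed another order than its receptor. It was listed at 0.08, 0.10, 0 and 0.04 FPKM under vehicle and reached 0.12, 0.49, 0.82 and 0.23 under anti-PD1 and 0.38, 0.73, 0.11 and 0.08 under α-KG. In the combination it was 5.16, 1.57, 4.05 and 0.59. Tumors 1, 2 and 3 of the combination were above every other tumor of the study, and tumor 4 lay inside the anti-PD1 and α-KG ranges. The log2 difference was 1.67 ± 0.32 against vehicle (adjusted p = 0.00109), 1.37 ± 0.32 against α-KG (adjusted p = 0.00453) and 1.27 ± 0.32 against anti-PD1 (adjusted p = 0.0223). Neither single treatment passed against vehicle (0.40 with anti-PD1 and 0.30 with α-KG, adjusted p = 0.553 and 0.574). Fas per Fasl in the same tumor had a median of 24.6 under α-KG (3.40 to 91.8) and 0.341 in the combination (0.207 to 1.10), so that the receptor transcript exceeded the ligand transcript in all 4 α-KG tumors and the reverse held in 3 of 4 combination tumors. The ratios of α-KG tumors 3 and 4 (39.1 and 91.8) rest on Fasl values of 0.11 and 0.08 FPKM, so that their size is uncertain.

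Tnfsf10 (NCBI Gene 22035, chr3:27317077-27339665), which encodes TRAIL, stood at 0.36, 0.12, 0.30 and 0.25 FPKM under vehicle, 0.42, 0.41, 0.62 and 0.61 under anti-PD1, 0.52, 0.81, 0.39 and 0.31 under α-KG and 3.12, 0.97, 2.43 and 0.50 in the combination. As for Fasl, combination tumors 1, 2 and 3 were the highest of all and tumor 4 was within the range of the single treatments. The combination was higher than vehicle by 1.02 ± 0.24 (adjusted p = 0.00342), than α-KG by 0.76 (adjusted p = 0.0197) and than anti-PD1 by 0.75 (adjusted p = 0.0450). The call against α-KG was lost in 7 of 25 settings, namely on quantile normalization, on centering, on the 2 groups alone, and without combination tumor 1 or 3 or α-KG tumor 3 or 4 (adjusted p from 0.0505 to 0.0998). That against anti-PD1 held in 7 of the 25 settings (the reported fit and its alternatives). Its receptor Tnfrsf10b (NCBI Gene 21933, chr14:69767472-69784411) lay between 6.25 and 12.01 FPKM in all 16 tumors, with group means of 7.40, 8.03, 9.72 and 9.78 in the order vehicle, anti-PD1, α-KG and combination. The combination passed against vehicle (0.37, adjusted p = 0.0317), without doing so after quantile normalization (0.03, adjusted p = 0.891) or without combination tumor 2 or 3 or vehicle tumor 2 or 4 (adjusted p from 0.0571 to 0.0996). It did not pass after centering on the tumor medians either. No other pair of groups passed, but α-KG against vehicle did without vehicle tumor 1 or α-KG tumor 4 (adjusted p = 0.0255 and 0.0483).

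The lymphotoxins were highest in the combination. Ltb (NCBI Gene 16994, chr17:35194507-35196305) was 1.76, 0.82, 0.25 and 0.19 FPKM under vehicle, 1.51, 1.81, 3.86 and 1.73 under anti-PD1, 2.78, 7.82, 4.27 and 3.23 under α-KG and 20.89, 6.79, 18.85 and 3.94 in the combination. It exceeded vehicle by 2.78 ± 0.43 in the combination (adjusted p = 0.000465) and by 1.66 ± 0.43 with α-KG (adjusted p = 0.0166), and it was 1.87 higher in the combination than under anti-PD1 (adjusted p = 0.0175). The call with α-KG was lost without α-KG tumor 2 or vehicle tumor 3 or 4 (adjusted p from 0.0565 to 0.0581). Combination against α-KG missed the threshold (1.12, adjusted p = 0.0517) and passed without combination tumor 2 or 4, α-KG tumor 2 or vehicle tumor 1 (adjusted p from 0.00858 to 0.0444). Lta (NCBI Gene 16992, chr17:35203165-35205578) was listed at 0.06, 0, 0 and 0.10 FPKM under vehicle, 0, 0.15, 0.26 and 0.21 under anti-PD1 and 0.06, 0.14, 0 and 0 under α-KG, and at 0.92, 0.18, 0.44 and 0.11 in the combination. All combination tumors were above all vehicle tumors, but 2 of the 4 were at 0.18 or below, close to the rounding of the values. Fitted without the filter on low values, Lta was 0.41 higher in the combination than under vehicle (adjusted p = 0.0279) and 0.40 higher than under α-KG (adjusted p = 0.0373). Although Tnf and Lta start only a short distance apart (the gap between the 2 genes is 1157 bases), their correlation across the 16 tumors was 0.058, and Tnf per Ltb had a median of 10.4 under α-KG (1.39 to 12.7) and 0.444 in the combination (0.330 to 3.98), ranges that overlap.

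Casp8 (NCBI Gene 12370, chr1:58795233-58847503), the initiator caspase of the pathway, was measured well above the filter in every tumor. It stood at 22.02, 24.17, 23.52 and 22.66 FPKM under vehicle, 20.22, 29.82, 27.02 and 26.30 under anti-PD1, 23.25, 22.90, 18.40 and 22.93 under α-KG and 39.49, 32.22, 35.91 and 28.06 in the combination. All 4 combination tumors were above the 8 vehicle and α-KG tumors, and only tumor 4 lay within the anti-PD1 range. The combination was higher than α-KG by 0.61 ± 0.12 (adjusted p = 0.00172), than vehicle by 0.53 ± 0.12 (adjusted p = 0.00276) and than anti-PD1 by 0.38 (adjusted p = 0.0417), the last holding in 10 of the 25 settings. Centering on the tumor medians brought the difference from vehicle to 0.21 (adjusted p = 0.0614). α-KG against vehicle was -0.08 (95% interval -0.33 to 0.17, adjusted p = 0.702).

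**Figure D1:**
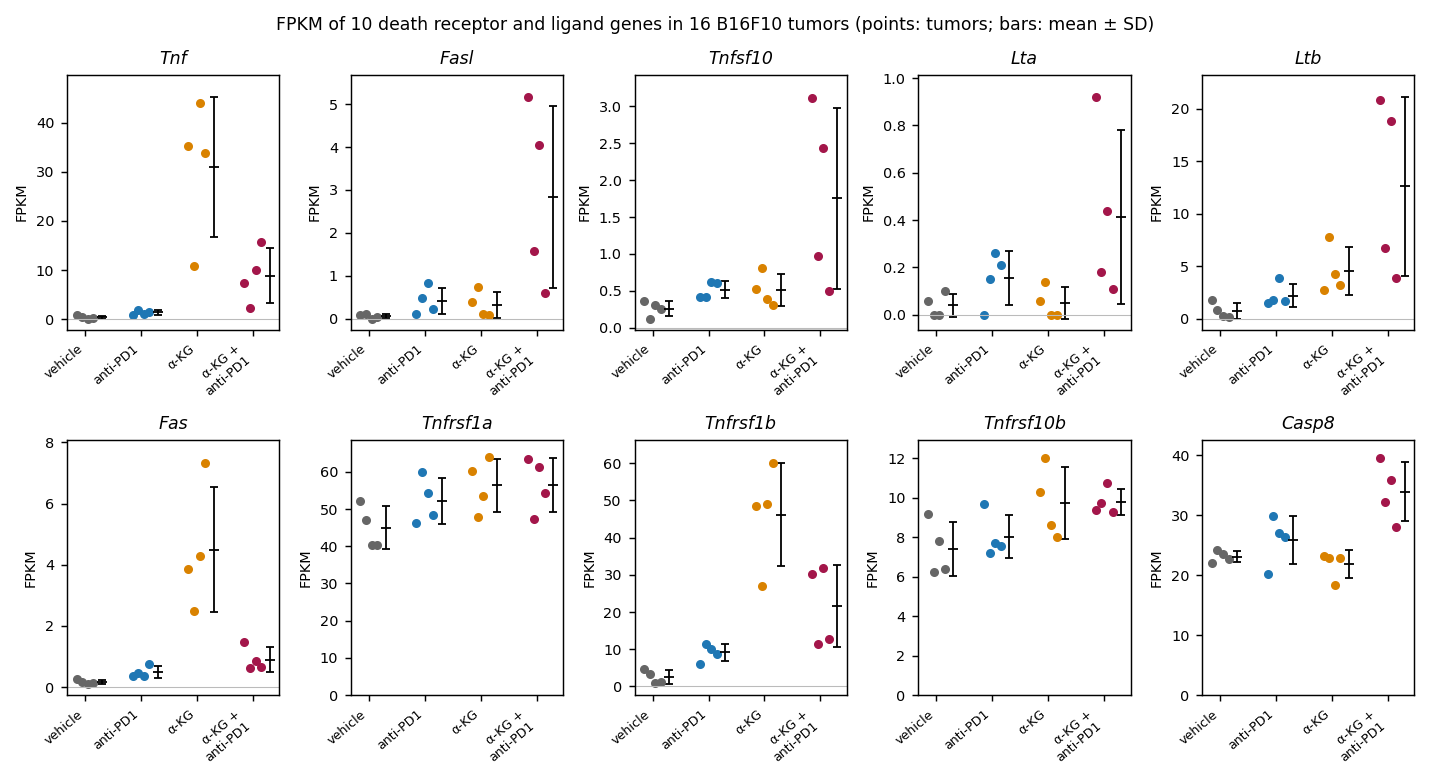
FPKM of the 10 genes (vertical axes, each on its own scale) in the 4 tumors of each group (points, drawn from tumor 1 on the left to tumor 4), with the mean and SD beside them. Tnf, Fas and Tnfrsf1b have their highest group mean under α-KG (31.0, 4.50 and 46.1 FPKM), and Fasl, Tnfsf10, Lta, Ltb and Casp8 have theirs in α-KG + anti-PD1.

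Counted over the tested members, 9 of 9 were called higher under α-KG + anti-PD1 than under vehicle, where 45.3% of all 12850 genes were called (34.9% higher and 10.5% lower). As Fasl, Fas and Tnfsf10 passed the filter only through treated tumors, the median and the counts of members are descriptions. This holds here, in the other comparisons below and for the interaction. Fasl reached 0.5 FPKM in 4 combination tumors, 1 anti-PD1 tumor and 1 α-KG tumor, and Fas in 4, 1 and 4. All 4 combination tumors were above all 4 vehicle tumors for 9 of the 10 genes (all but Tnfrsf1a), and 34.8% of the genes tested had no overlap between these groups. The median log2 fold change was 1.02 for the members and 0.15 for all genes. The split of all genes depended on the scaling, with 4479 higher and 1348 lower as deposited and 2197 higher and 4803 lower after centering on tumor medians, where 5 members (Tnf, Tnfrsf1b, Ltb, Fasl and Tnfsf10) were called higher. Tnfrsf1a and Tnfrsf10b, at 0.32 and 0.37, were the members nearest to the median of all genes.

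Adding α-KG to anti-PD1 raised 5 of 9 members (Ltb, Tnf, Fasl, Tnfsf10 and Casp8) against a background of 15.5% of all genes (1819 higher and 168 lower, and 802 higher and 1968 lower after centering). Fitted by limma on the 8 tumors of these groups alone, 0 members and 0 of all genes passed. In that fit 7 members and 4077 of the 12850 genes had an unadjusted p under 0.05. Without anti-PD1 tumor 1 or anti-PD1 tumor 4, none of the 5 passed, and the same held without combination tumor 3.

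Adding anti-PD1 to α-KG moved the members in both directions. Fasl, Tnfsf10 and Casp8 were higher and Tnf, Fas and Tnfrsf1b were lower in the combination than in α-KG alone, 6 of 9 against 38.3% of all genes (4086 higher and 832 lower, and 1758 higher and 3127 lower after centering). Tnf, Fas, Fasl and Casp8 passed in all 25 settings, and Tnfrsf1b and Tnfsf10 passed in 18 each. Of all genes tested, 6.47% were lower in this comparison.

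α-KG alone raised 4 of 9 members over vehicle (Tnf, Tnfrsf1b, Fas and Ltb), where 15.9% of all genes were called, 8.40% higher and 7.53% lower. Against anti-PD1, α-KG alone raised Tnf by 3.62, Tnfrsf1b by 2.19 and Fas by 1.82 (adjusted p = 5.81e-05, 0.00277 and 3.24e-05), 3 of 9 against 3.16% of all genes. Anti-PD1 alone raised 0 of 9 members by limma at the adjusted threshold, where 0.747% of all genes were called. The unadjusted limma p was under 0.05 for 1 member (Tnfrsf1b) and for 2130 of the 12850 genes. On the 8 tumors of these groups alone, 0 members and 0 of all genes passed by limma. In that fit 6 members and 2137 of the 12850 genes had an unadjusted p under 0.05. All 4 anti-PD1 tumors were above all 4 vehicle tumors for 5 of the 10 genes (Tnf, Tnfrsf1b, Fas, Fasl and Tnfsf10), and 8.61% of the genes tested had no overlap between these groups. The comparisons share groups, so their counts are not independent.

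**Figure D2:**
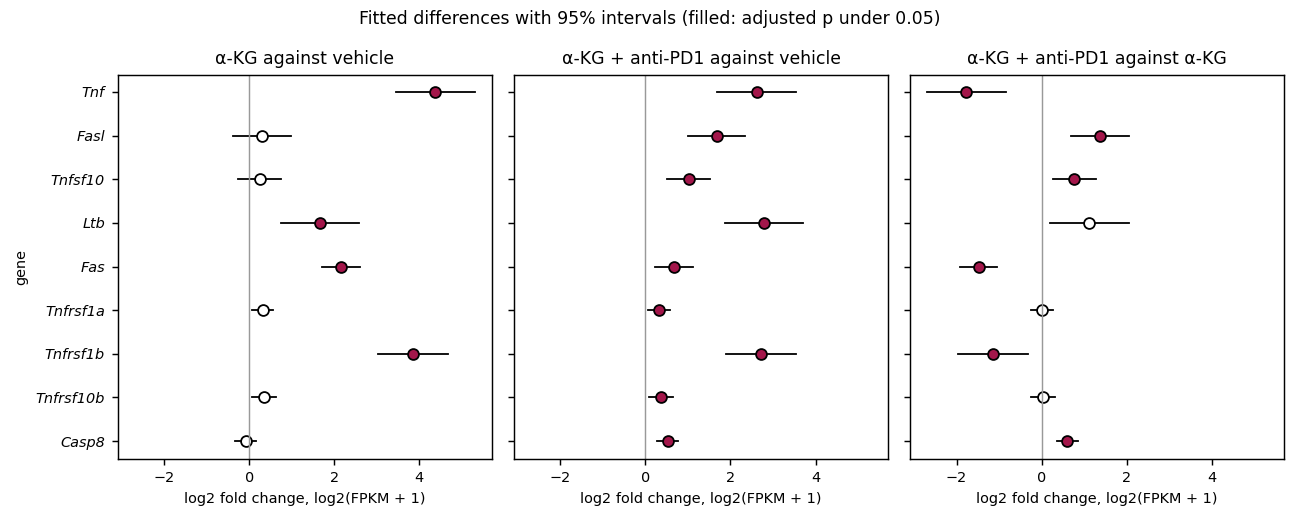
Log2 fold change of the 9 tested members (points, filled where adjusted p was under 0.05) with 95% intervals before adjustment for multiple tests, in 3 comparisons. Tnf, Fas and Tnfrsf1b lie right of 0 in α-KG against vehicle (4.38, 2.16 and 3.86) and left of 0 in the combination against α-KG (-1.77, -1.49 and -1.15), and Fasl is at 0.30 and 1.37.

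Whether anti-PD1 acted differently with and without α-KG was tested as an interaction, the effect of anti-PD1 on top of α-KG minus its effect on top of vehicle. It was -2.82 ± 0.55 for Tnfrsf1b, -2.53 ± 0.62 for Tnf and -1.83 ± 0.29 for Fas (log2 ± SE, adjusted p = 0.00595, 0.0189 and 0.00159). Without α-KG, anti-PD1 minus vehicle was 1.67, 0.76 and 0.34 for the 3 genes, none of which passed, and with α-KG the same difference was -1.15, -1.77 and -1.49. They were 3 of 9 members, where 11.1% of all genes were called, and the interaction of each passed in all 24 settings. For Fasl the interaction was 0.97 (adjusted p = 0.166) and for Casp8 0.46 (adjusted p = 0.0832), so that for neither was a difference in the effect of anti-PD1 shown. Without combination tumor 4 both passed (1.33 and 0.55, adjusted p = 0.0285 and 0.0435), and Casp8 also did without anti-PD1 tumor 2 (adjusted p = 0.0392).

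**Figure D3:**
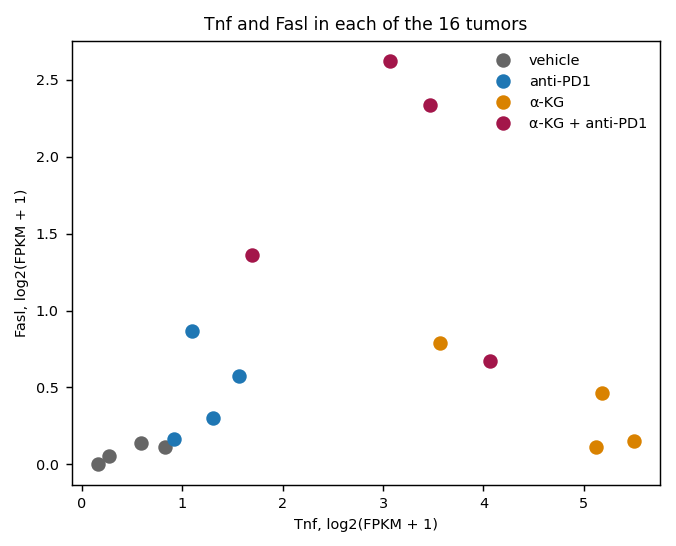
Tnf against Fasl in each of the 16 tumors, both as log2(FPKM + 1), with the groups in color. The α-KG tumors lie to the right (Tnf from 10.88 to 44.11 FPKM, Fasl no higher than 0.73 FPKM), and combination tumors 1 to 3 lie above all others.

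The members moved with the markers of different leukocytes. A marker score is the average log2(FPKM + 1) of the genes in a list. The score of 10 T cell genes averaged 0.60 under vehicle (0.27 to 1.04), 1.52 under anti-PD1 (1.01 to 1.98), 1.22 under α-KG (0.82 to 2.23) and 3.16 in the combination (1.75 to 4.19), and that of 5 NK cell genes 0.11 (0.01 to 0.24), 0.55 (0.24 to 0.83), 0.30 (0.18 to 0.43) and 1.67 (0.68 to 2.53). Of the NK cell genes, 3 of 5 were tested, and Klra8 was listed at 0 in every vehicle tumor. In the combination Klrk1 (8.09 FPKM) and Eomes (3.23) were the highest of the list, above Klrb1c (2.05), Ncr1 (1.65) and Klra8 (1.45). Whether this score separates NK cells from T cells was not tested. The score of 6 neutrophil genes went 2.23 (1.92 to 2.45), 2.54 (1.76 to 3.32), 6.48 (5.87 to 6.98) and 2.90 (2.39 to 3.48) in the same order. S100a8 and S100a9, calcium-binding proteins of neutrophils, averaged 713 and 944 FPKM under α-KG and no more than 19.8 FPKM elsewhere, and the defining Ly6g averaged 4.31 FPKM under α-KG and at most 0.11 FPKM elsewhere, being listed at 0 in every vehicle tumor. The score of 8 pan-leukocyte genes was 3.63, 5.10, 6.14 and 6.16, and that of 3 monocyte genes 1.53, 3.42, 4.13 and 4.77. The part of these cells in the members' differences was not tested.

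Fasl correlated with the NK cell score at r = 0.979 and with the T cell score at 0.977 over the 16 tumors, and at 0.949 and 0.945 when each group was set to its own mean. Tnfsf10 (0.960, and 0.916 within groups), Lta (0.911 and 0.843) and Casp8 (0.874 and 0.682) also stood closest to the NK cell score. With the T cell score, r was 0.948 for Tnfsf10, 0.885 for Lta and 0.855 for Casp8. Fasl and Tnfsf10 correlated with each other at 0.970. Ltb was closest to the monocyte score over all tumors (0.935) and, within groups, reached 0.947 with the T cell score. Fas and Tnf were closest to the neutrophil score at 0.947 and 0.867, and within groups r was 0.483 and 0.572. By Spearman rank correlation, Fas and Tnf stood closest to the pan-leukocyte score (0.879 and 0.826), with 0.812 and 0.815 for the neutrophil score. Tnfrsf1b followed the score of 8 pan-leukocyte genes (0.939, and 0.909 within groups) and so did Tnfrsf1a (0.834 and 0.743). Fas and Fasl had an r of 0.026. These coefficients are descriptions over 16 points that share groups, the same libraries and the same scaling.

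**Figure D4:**
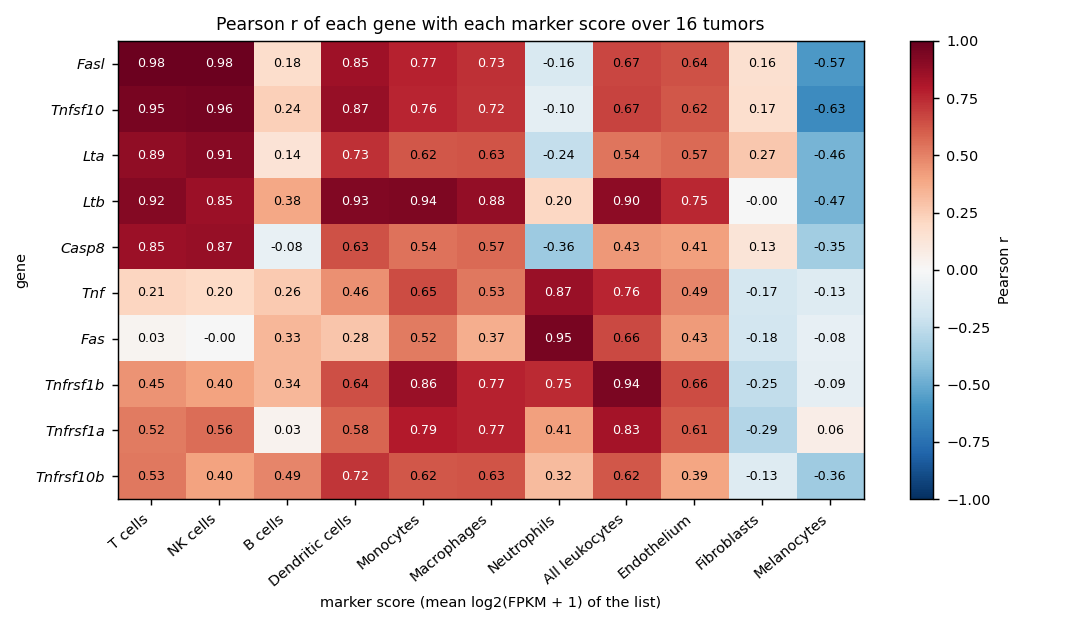
Pearson r of each member (rows) with the scores of the marker lists drawn (columns) over the 16 tumors, from -1 (blue) to 1 (red). The lists of CD4 and CD8 T cells, skeletal muscle, keratinocytes and red cells are not drawn. With the red cell score r ran from -0.812 (Fasl) to -0.057 (Fas). Fasl, Tnfsf10, Lta and Casp8 are deepest in the T and NK cell columns, Ltb in the monocyte column, Fas and Tnf in the neutrophil column, and Tnfrsf1b and Tnfrsf1a in the column of all leukocytes.

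Likeness was measured as Pearson r of log2(FPKM + 1) over the 16 tumors among all genes tested. Closest to Fasl were Ikzf3 and Tox, lymphocyte transcription regulators (r = 0.990 each), and Sla2 (0.987), and closest to Tnfsf10 were Skap1 (0.980), the costimulatory receptor gene Cd28 (0.980) and the T cell factor Bcl11b (0.976). For Tnf they were Zfp36 (0.971), which encodes a protein that destabilizes TNF mRNA, Tnip3 (0.969) and Ccrl2 (0.968). Fas stood closest to Gadd45b (0.984), Ell2 (0.981) and Adgrg3 (0.981). Those of Tnfrsf1b were Plek (0.990), Pik3ap1 (0.989) and Slfn2 (0.988), and those of Ltb were Rassf5 (0.986), Ikzf1 (0.982) and Dock8 (0.980). Lta, mostly near 0, was closest to the NK receptor gene Klra4 (0.970). Casp8 was closest to Stx4a (0.960), Tnfrsf1a to Furin (0.960) and Tnfrsf10b to Gsap (0.920).

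Below the receptors, most adaptors were higher in the combination than under vehicle on the deposited scale. Of the 9 adaptor genes tested, 8 were higher than under vehicle and 0 lower (median 0.48, range -0.15 to 1.96). Of all genes 45.3% were called (34.9% higher and 10.5% lower), with a median of 0.15. With α-KG alone 1 of 9 was higher (median 0.18). There 15.9% of all genes were called (8.40% higher and 7.53% lower), with a median of -0.04. With anti-PD1 alone 0 of 9 were called, where 0.747% of all genes were called. Traf1, an adaptor of TNFR2, averaged 0.675, 1.70, 9.00 and 6.13 FPKM under vehicle, anti-PD1, α-KG and combination (1.96 in combination against vehicle, adjusted p = 0.000476), Rnf31, the catalytic subunit of the linear ubiquitin ligase, rose by 1.09 (adjusted p = 0.00100) and Traf5 by 0.93 (adjusted p = 0.00397). Fadd, the adaptor that joins Fas to caspase-8 and is named here after its value was seen, was the one not called (-0.15, adjusted p = 0.320). The counts of this list and of those below were made on the deposited scale only. For the combination against vehicle, all genes split into 4479 higher and 1348 lower on that scale. After centering on tumor medians the split was 2197 higher and 4803 lower. How the list counts change with centering was not tested.

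Of the inhibitors and decoys 5 of 11 tested rose and 0 fell in the combination against vehicle (median 0.39, range -0.10 to 1.41). Counted in either direction, this share was close to the 45.3% of all genes called (34.9% higher and 10.5% lower). With α-KG alone 4 of 11 rose (median 0.26), where 15.9% of all genes were called (8.40% higher and 7.53% lower). Tnfaip3, which encodes the NF-κB inhibitor A20, averaged 2.72, 4.01, 25.1 and 9.43 FPKM in the same order of groups, and Birc3, which encodes cIAP2, 1.61, 3.01, 9.95 and 6.17 FPKM, so that both were highest with α-KG alone. Birc2, which encodes cIAP1, was highest in the combination (3.22, 3.85, 3.22 and 7.96 FPKM, 1.11 against vehicle, adjusted p = 0.000475). Their interactions were -1.71 for Tnfaip3, -1.25 for Birc3 and 0.90 for Birc2 (adjusted p = 0.0225, 0.0258 and 0.0321). Tnfrsf23, a decoy receptor for TRAIL that was picked after its values were seen, averaged 0.50, 0.825, 7.41 and 0.668 FPKM, and it was 2.45 higher with α-KG than with vehicle (adjusted p = 3.24e-07), with a difference of -2.29 between the combination and α-KG alone (adjusted p = 1.99e-06). Its relative Tnfrsf22 stayed between 4.00 and 4.34 FPKM on average.

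Among 16 genes of the caspases, the mitochondrial arm and necroptosis, 8 were higher and 1 lower in the combination than under vehicle (median 0.32, range -0.29 to 3.48), where 34.9% of all genes were higher and 10.5% lower. With α-KG alone 2 of 16 were higher and 0 lower, a share close to the 15.9% of all genes called (8.40% higher and 7.53% lower). Those named are Zbp1, a sensor of nucleic acids that can start necroptosis (3.48, adjusted p = 0.000619, from 3.89 to 49.5 FPKM), and Ripk3, the necroptosis kinase (1.72, adjusted p = 0.000590). Cycs, which encodes cytochrome c, was the one that fell, by 0.29 (adjusted p = 0.0152).

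Of the other ligand genes of the TNF superfamily 5 of 12 could be tested. In the combination 4 of the 5 were higher than under vehicle (median 0.80), where 34.9% of all genes were higher, namely Tnfsf12 (0.93), Tnfsf14 (0.86), Tnfsf13b (0.80) and Tnfsf9 (0.37). Tnfsf13b and Tnfsf14 reached no more than 0.28 and 0.20 FPKM under vehicle and passed the filter only through treated tumors, so this count is a description. Tnfsf14, which encodes LIGHT, was highest in α-KG alone (0.0975, 0.403, 2.61 and 1.08 FPKM), with an interaction of -1.17 (adjusted p = 0.0271). Of 18 receptor genes 13 were tested, 10 of them higher and 0 lower in the combination than under vehicle (median 1.07, range -0.23 to 2.55), against the same 34.9%. Cd27 (2.55), Tnfrsf4 (2.02) and Tnfrsf18 (1.79), costimulatory receptors of T cells, led this list, and Cd40 (1.58) had its smallest adjusted p (0.000460). With α-KG alone 3 of 13 were higher, where 15.9% of all genes were called (8.40% higher and 7.53% lower). Ltbr, the receptor of the lymphotoxin complex and named after its value was seen, averaged 58.9 FPKM under vehicle and 53.3 in the combination and was not called (-0.14, adjusted p = 0.134).

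Of 17 NF-κB factors and genes induced by TNF that were tested, 13 were higher, 0 lower and 4 not called with α-KG alone against vehicle (median 0.92, range 0.11 to 6.96), where 15.9% of all genes were called. In the combination 12 were higher, 0 lower and 5 not called (median 0.87, range 0.07 to 2.54), where 45.3% of all genes were called. With anti-PD1 alone 0 of 17 were called, where 0.747% of all genes were called. Cxcl1 of this list passed the filter only through treated tumors, with no more than 0.43 FPKM under vehicle. The neutrophil marker score was also higher under α-KG (6.48 against 2.23 under vehicle), and its part in these differences was not tested. In the combination against vehicle the adhesion molecule gene Icam1 (2.54), Vcam1 (1.89) and the chemokine gene Ccl2 (1.83) had the largest changes, and Icam1 and the NF-κB subunit gene Relb (1.32) the smallest adjusted p (0.000417 and 0.000491). Nfkbia, which encodes the inhibitor of NF-κB that NF-κB itself induces, averaged 10.8, 20.4, 202 and 37.1 FPKM (1.62 in the combination against vehicle, adjusted p = 0.000641), and the neutrophil chemokine gene Cxcl2 4.71, 11.6, 705 and 14.9 FPKM, both picked after their values were seen. In the combination against α-KG alone 1 of 17 was higher and 4 were lower, where 38.3% of all genes were called, and the interaction was called for 3 of 17, all negative, where 11.1% of all genes were called.

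**Figure D5:**
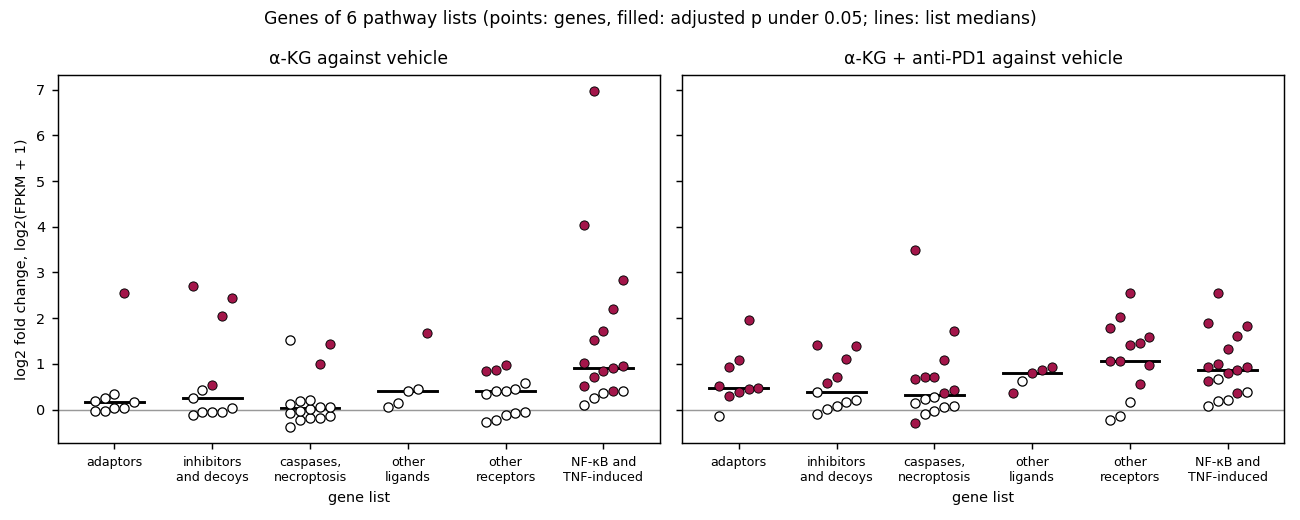
Log2 fold change against vehicle of the tested genes (points, filled where adjusted p was under 0.05) in 6 lists, for α-KG (left) and α-KG + anti-PD1 (right), with list medians as lines. Called adaptor genes number 1 of 9 on the left and 8 of 9 on the right, and called NF-κB and TNF-induced genes 13 and 12 of 17.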

How the data were processed

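RNA of 16 tumors was sequenced, 4 per group, and groups were taken from the sample labels. Per the labels, mRNA was taken up by oligo-dT selection and dUTP was used for the second cDNA strand, before libraries were run on a DNBSEQ platform. The submitters' processing notes name HISAT, Bowtie2 and mm10, without roles or versions. The counting program and annotation are not given in the sources used here. The authors deposited FPKM values, by the column names, with 2 decimals and 1 column per tumor, and no step that sets tumors on a common scale is stated. Coordinates and promoter sequences are from RefSeq GRCm38.p6, the release that mm10 names, matched by gene ID.

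FPKM values were changed to log2(FPKM + 1), and genes that reached 0.5 FPKM in 4 tumors or more were kept. The model of limma 3.58.1 (R 4.3.3) held a mean for each group, all 16 tumors entered it, and lmFit, contrasts.fit and eBayes with trend were used. Benjamini-Hochberg adjustment was over 12850 genes for 6 comparisons of groups and 1 interaction. Since the values are FPKM, no count test was run. Levels, scores and correlations used Python 3.11.15, pandas 2.3.3 and numpy 2.4.6, and figures matplotlib 3.10.9. The fit was tested on simulated data. Alternatives were a pseudocount of 0.1, no filter, quantile normalization, centering, rescaling to 1 sum, only the groups compared, no trend, a replicate block and leaving out each tumor.

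Named genes are the 10 members, the 3 genes most correlated with each (members left out), marker genes where a level is needed, and, for each pathway list, the called genes with the 3 largest changes and the 2 smallest adjusted p in the combination against vehicle and any called against the list's direction. Some genes that the rule names are not reported here. Genes outside this rule are marked in the text as chosen after their values were seen. The members and lists were chosen with earlier results of these data known. Replicate numbers of the labels did not pair tumors of different groups. The tumors of a group come from separate mice. The precision of values under about 1 FPKM is not known, since depth is not given.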

Additional observations from a re-analysis of the deposited data

Results flagged for a closer look

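Among 40 combinations of a member and a group, 2 held a tumor far from the other 3, where chance flags about 1 in 20. Ltb stood at 3.86 FPKM in anti-PD1 tumor 3, with the other 3 tumors of the group at 1.51 to 1.81 FPKM. Casp8 stood at 18.4 FPKM in α-KG tumor 3, with the others at 22.90 to 23.25 FPKM.

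The effect of anti-PD1 differed with and without α-KG for 3 members by the limma interaction. The difference was -2.82 for Tnfrsf1b, -2.53 for Tnf and -1.83 for Fas on the log2 scale. All 3 remained called in each of 24 settings. The neutrophil marker score went with them, at 6.48 with α-KG alone, 2.90 with the combination, 2.54 with anti-PD1 and 2.23 with vehicle, and its part in these differences was not tested.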

How the results depend on the processing

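Of the members' log2 fold changes under alternative settings, 1374 kept their direction and side of the threshold, 82 lost the threshold, 23 gained it and 24 changed sign, all 24 for differences that were not called in the reported fit. The number of members called higher in the combination than in vehicle was 9, and 5 when tumors were centered on their medians. It was 6 with quantile normalization (2241 of all genes higher and 3994 lower), and 8 on the 2 groups alone or with the replicate block. Against anti-PD1 it was 5, and 4 with a pseudocount of 0.1, 7 with rescaling to 1 sum, 3 with no filter, with quantile normalization, with centering or with the replicate block, 0 on the 2 groups alone, and 0 to 6 when single tumors were left out. For anti-PD1 against vehicle it was 0, and 1 with a pseudocount of 0.1 or centering and 0 to 1 with a tumor left out. The interaction was called for 3, and for 3 to 5 with a tumor left out (5 without combination tumor 4). Leaving out a tumor gave 7 to 9 members for the combination against vehicle, 4 to 7 against α-KG, 3 to 6 for α-KG against vehicle and 3 for α-KG against anti-PD1. In the same order, 4265 to 6644, 3459 to 5207, 1256 to 2621 and 275 to 419 of all genes were called.

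Signs changed as follows. For Tnfrsf1a, centering gave -0.121 in the combination against anti-PD1 and -0.268 against α-KG, which was called there (adjusted p = 0.0315), quantile normalization -0.0494 against α-KG, and leaving out a tumor -0.0695 to 0.0867 there. For Tnfrsf10b in the combination against α-KG they gave -0.252, -0.270 and -0.0591 to 0.119, and its interaction was 0.0988 with rescaling and -0.185 to 0.009 without a tumor. In α-KG against anti-PD1, Tnfsf10 was 0.0248 with centering and -0.107 to 0.0489 without a tumor, and Fasl -0.233 to 0.0334. The interaction of Ltb was -0.486 with a pseudocount of 0.1 and -0.104 to 0.612 without a tumor. The cause was not tested.

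The replicate numbers did not pair the tumors, since same-numbered tumors correlated at -0.642 to 0.411 in their deviations from group means over 24 pairs. With the replicate block 8, 3 and 7 members were called for the combination against vehicle, anti-PD1 and α-KG. For anti-PD1 and α-KG against vehicle 0 and 4 were called, for α-KG against anti-PD1 3 and for the interaction 3. In the same order, 5430, 1533, 4482, 0, 1657, 316 and 1010 of the 12850 genes were called. Over all genes, counts outside 1.5 times were seen for the combination against anti-PD1 (1987, and 0 on the 2 groups alone to 4234 rescaled, with 228 to 2937 without a tumor), anti-PD1 against vehicle (96, and 0 to 312, with 0 to 885), α-KG against vehicle (2048, and 1246 to 2683, with 1256 to 2621) and the interaction (1429, and 1010 to 2394, with 699 to 2362). Low FPKM values with 2 decimals limit Lta, Fasl and Tnfsf10 in vehicle tumors, and Fasl in α-KG tumors 3 and 4.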
